A study of Mus musculus with 9 samples.

Results

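The 10 genes considered here mark the first steps of T cell development: Kit, Flt3, Lyl1 and Hhex, which are typical of uncommitted progenitors, and Tcf7, Gata3, Bcl11b, Il2ra, Thy1 and Il7r, which are typical of T lineage specification. They were chosen by symbol, each represented by its transcript cluster (the array's unit for a gene) with the highest mean. A cluster was found for 8 of the 10, namely the 4 progenitor genes and 4 specification genes, among 19505 gene symbols measured in all. Tcf7 and Gata3 were not analysed here. Total RNA was taken from thymic lobes of C57BL/6 embryos at day e13.5 and measured on 9 whole-transcriptome arrays. Wild type lobes (wt in the labels), lobes of genotype Foxn1933/1089 (here, Foxn1 mutants) and lobes of genotype Tbx1neo2/neo2 (here, Tbx1 mutants) gave 3 arrays each. Foxn1 encodes the master transcription factor of thymic epithelial cells, and the Foxn1 mutants carried different alleles on the paired chromosomes. Tbx1 encodes a T-box factor of the pharyngeal region, and neo2 is known as an allele of reduced expression. The mutant alleles are carried throughout the embryo, so no difference below can be placed in T cells themselves. The labels do not say whether the samples of a genotype were separate embryos or pools, so p-values speak only of the variation among these samples, which may be technical.

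T cells arise from blood-borne progenitors that enter the thymus and meet Notch ligands and cytokines made by its epithelium. The earliest of these cells use the growth factor receptors Kit and Flt3 and transcription factors inherited from stem and progenitor cells. Notch signalling then brings on Tcf7 and Gata3, later Bcl11b, and with them the interleukin receptors and surface proteins of the T lineage, while the progenitor factors are gradually shut down. The first progenitors reach the mouse thymus before it is vascularised, so lobes of this age hold a young wave of such cells.

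Levels are deposited log2 signals, on which a difference of 1 is a doubling. The array medians lay between 5.09 and 5.20, and the negative-control probes had array medians from 4.27 to 4.94. A pair of arrays stood apart from the other 7. Wild type replicate 1 and Foxn1 mutant replicate 2 read 4.24 and 4.45 for Prss16, a protease of cortical thymic epithelium, against 13.87 to 14.43 elsewhere, and 6.44 and 5.87 for Ptprc, the pan-leukocyte antigen CD45, against 10.26 to 12.36. The mean of 8 sympathetic neuron genes was 11.21 on wild type replicate 1 and at most 5.27 on the other arrays, and the mean of 5 heart muscle genes was 8.30 on Foxn1 mutant replicate 2 and at most 6.41 elsewhere. The comparisons of the 8 genes are therefore given with and without this pair, and those of other genes with all 9 arrays unless stated. Every level below reflects both how many cells of a type a sample held and how much RNA each cell made, which cannot be told apart in bulk RNA. Foxn1 itself read 7.78 to 10.35 in wild type, 8.73 to 9.67 in Foxn1 mutants and 8.88 to 10.04 in Tbx1 mutants. Tbx1 read 4.25 to 5.85, 4.07 to 4.83 and 4.80 to 5.38 in the same order. With all 9 arrays neither level separated its mutant from wild type, and both ranges overlapped. Without the pair, Foxn1 read 10.01 and 10.35 in wild type and 9.02 and 9.67 in Foxn1 mutants. Tbx1 then read 4.25 and 4.54 in wild type and 4.80 to 5.38 in Tbx1 mutants. Neither overlapped, where 17.1% of clusters lay lower in Foxn1 mutants and 11.6% higher in Tbx1 mutants without overlap.

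The 8 genes differed widely in how far they rose above background. Kit lay above the 95th percentile of the negative controls (8.03 to 9.70) on all 9 arrays and Lyl1 on 5, and the other 6 genes on none. Kit, Lyl1 and Bcl11b exceeded the negative-control median on all 9 arrays. Il7r and Thy1 did so on the same 7 arrays and missed it on the pair that stood apart. Hhex did so on 6, Il2ra on 5 and Flt3 on none. Differences in Flt3, Hhex, Il2ra and Bcl11b were thus differences near or below background, and a low array signal does not show that the transcript was absent.

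**Figure D1:**
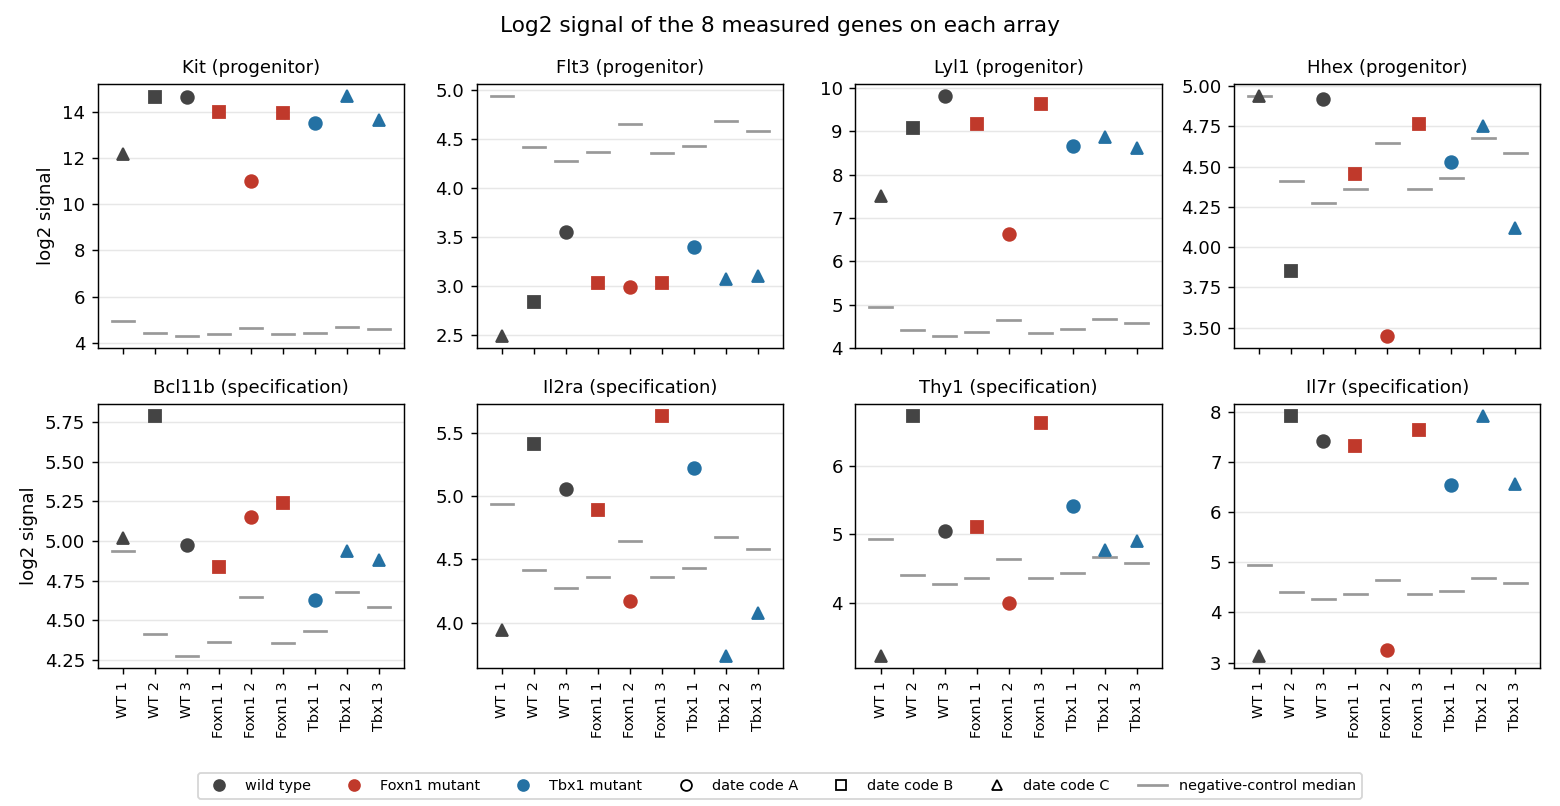
Log2 signal (vertical axis, a separate scale for each gene) of the 8 measured genes on each of 9 arrays, with 1 point an array, colour for genotype, shape for the date code in the sample title and a grey bar at that array's negative-control median. Kit lies far above the grey bars on all 9 arrays, Flt3 lies below them on all 9, and Kit, Lyl1, Il7r and Thy1 are lowest on the pair of arrays WT 1 and Foxn1 2.

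Kit, the receptor tyrosine kinase for stem cell factor, was the progenitor gene furthest above background. It read 12.20, 14.65 and 14.68 in wild type, 14.00, 11.01 and 13.99 in Foxn1 mutants, and 13.56, 14.73 and 13.69 in Tbx1 mutants. The group means were 13.84 ± 1.42, 12.999 ± 1.73 and 13.99 ± 0.64 (SD, n = 3 each). The low values belonged to the pair of arrays that stood apart, and on the other 7 Kit stayed within 13.56 to 14.73, so the groups overlapped on all 9 arrays. Even the lowest Kit value, 11.01, exceeded the negative controls' 95th percentile on its array.

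Lyl1, a basic helix-loop-helix factor of blood progenitors that is turned off as T cells commit, read 7.51, 9.08 and 9.82 in wild type, 9.17, 6.64 and 9.63 in Foxn1 mutants, and 8.67, 8.86 and 8.62 in Tbx1 mutants. Its means were 8.80 ± 1.18, 8.48 ± 1.61 and 8.71 ± 0.13 (SD, n = 3 each), again lowest on the same pair of arrays. The 3 Tbx1 mutant arrays lay between 8.62 and 8.86, below the wild type and Foxn1 mutant arrays that did not stand apart. Hhex, a homeobox factor of progenitors and of endoderm, ranged from 3.45 to 4.94 over the 9 arrays, with means of 4.57 ± 0.62 in wild type, 4.22 ± 0.69 in Foxn1 mutants and 4.47 ± 0.32 in Tbx1 mutants (SD, n = 3 each). Flt3, the receptor tyrosine kinase of multipotent lymphoid progenitors, ranged from 2.49 to 3.55, below the negative-control median by 0.73 to 2.45, and gave no level that could be ordered.

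Il7r, the alpha chain of the interleukin 7 receptor on which early thymocytes depend for survival, was the specification gene with the widest range over arrays. It read 3.12, 7.91 and 7.42 in wild type, 7.31, 3.25 and 7.64 in Foxn1 mutants, and 6.55, 7.92 and 6.55 in Tbx1 mutants. The means were 6.15 ± 2.64, 6.07 ± 2.45 and 7.005 ± 0.79 (SD, n = 3 each). The SDs of wild type and Foxn1 mutants came from 1 array each, since the 7 other arrays spanned 6.55 to 7.92.

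Thy1, a GPI-anchored surface protein of T lineage cells that fibroblasts and neurons also carry, read 3.22, 6.73 and 5.05 in wild type, 5.11, 4.00 and 6.62 in Foxn1 mutants, and 5.42, 4.77 and 4.90 in Tbx1 mutants. Its means were 5.00 ± 1.76, 5.24 ± 1.32 and 5.03 ± 0.34 (SD, n = 3 each). Besides the low pair, wild type replicate 2 and Foxn1 mutant replicate 3 stood out as high. Il2ra, the interleukin 2 receptor alpha chain (CD25) of thymocytes that are entering the lineage, read 3.94, 5.42 and 5.06 in wild type, 4.89, 4.17 and 5.64 in Foxn1 mutants, and 5.23, 3.73 and 4.08 in Tbx1 mutants. Bcl11b, the zinc finger factor of T lineage commitment, read 5.02, 5.79 and 4.98 in wild type, 4.84, 5.15 and 5.24 in Foxn1 mutants, and 4.63, 4.94 and 4.88 in Tbx1 mutants. It was the specification gene with the narrowest range, 0.08 to 1.38 above the negative-control medians, and on the pair of arrays that stood apart it read 5.02 and 5.15, inside the range of the other 7. Il2ra was likewise not lowest on that pair: its lowest value, 3.73, was on Tbx1 mutant replicate 2.

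The same 2 arrays, wild type replicate 2 and Foxn1 mutant replicate 3, carried the highest Thy1, Il2ra and Bcl11b values of the 9. Of 23 other T specification genes measured, 7 had these as their 2 highest arrays and 12 had 1 of them as the highest. Among the 7, Cd3g, a chain of the T cell receptor complex, read 13.18 and 13.25 on them and 9.79 to 11.99 on the other 5 arrays that did not stand apart. Ptcra, the pre-T cell receptor alpha chain, read 8.27 and 7.37 against 6.01 to 6.43, and Lat, an adaptor of T cell receptor signalling, read 10.31 and 9.94 against 8.01 to 9.09. Both arrays share a date code in their titles, called B here, but so does Foxn1 mutant replicate 1, on which Thy1 was 5.11. Kit did not follow this pattern: wild type replicate 2 and Foxn1 mutant replicate 3 read 14.65 and 13.99, inside the range of the other arrays. Having 1 of these 2 arrays as the highest was not particular to T specification genes. It held for 8 of 12 thymic epithelial, 7 of 11 pan-leukocyte and 4 of 5 skeletal muscle genes. It was so for 3 of 12 other progenitor, 1 of 7 macrophage and 0 of 7 mesenchymal genes. Both were the 2 highest arrays for fewer genes: 2 of 12 thymic epithelial, 3 of 11 pan-leukocyte and 0 of 5 skeletal muscle genes. The same count was 0 of 12 other progenitor, 0 of 7 macrophage and 0 of 7 mesenchymal genes. The share over all clusters was not counted.

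Over the 9 arrays Kit, Lyl1 and Il7r varied together, with correlations of 0.92 between Kit and Lyl1, 0.95 between Kit and Il7r and 0.91 between Lyl1 and Il7r. These are descriptions of 9 points that share the pair of low arrays. Without that pair the correlations over 7 arrays were 0.45, 0.85 and 0.49. Thy1 went with Il2ra (0.82 over 9 arrays and 0.79 over 7), and its correlation with Kit was 0.66 over 9 arrays and 0.07 over 7. The mean of 11 pan-leukocyte genes was 6.89 and 7.01 on the low pair and 9.58 to 10.58 elsewhere. Its correlation was 0.99 with Il7r, 0.94 with Lyl1, 0.94 with Kit and 0.81 with Thy1 over 9 arrays. Over the 7 arrays without the pair it was 0.84, 0.84, 0.75 and 0.48 in the same order.

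RefSeq promoter sequences of assembly GRCm38.p6 were available for 7 of the 8 genes, in 8 entries since Kit has 2, and none for Thy1. The 250 bases before the start site are shown for the 3 genes that varied together over the arrays, to set their composition and motif content side by side. Capitals mark a match to CTTTGA, the core recognised by TCF and LEF factors, or to its reverse complement.
Kit: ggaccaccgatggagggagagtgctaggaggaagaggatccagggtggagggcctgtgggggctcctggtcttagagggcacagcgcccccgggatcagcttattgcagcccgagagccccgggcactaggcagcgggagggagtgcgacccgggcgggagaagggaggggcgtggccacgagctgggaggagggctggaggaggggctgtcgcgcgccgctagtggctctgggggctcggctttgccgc
Lyl1: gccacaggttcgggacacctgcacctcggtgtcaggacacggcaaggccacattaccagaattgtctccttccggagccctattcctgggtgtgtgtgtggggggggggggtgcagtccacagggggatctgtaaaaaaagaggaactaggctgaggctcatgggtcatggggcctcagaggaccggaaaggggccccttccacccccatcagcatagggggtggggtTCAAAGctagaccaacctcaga
Il7r: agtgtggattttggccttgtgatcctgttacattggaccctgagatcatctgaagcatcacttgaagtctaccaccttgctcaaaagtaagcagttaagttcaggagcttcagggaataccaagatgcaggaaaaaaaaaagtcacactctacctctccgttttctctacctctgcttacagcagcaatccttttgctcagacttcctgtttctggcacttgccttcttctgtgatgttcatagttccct
The Kit stretch is chr5:75574737-75574986 on the plus strand, that of Lyl1 is chr8:84701207-84701456 on the plus strand, and that of Il7r is chr15:9529877-9530126 on the minus strand, each printed along its gene. Their GC content was 70.8%, 60.0% and 44.0%, against a median of 52.4% over 32851 promoters (quartiles 45.2% and 61.2%). Kit and Il7r thus lay on opposite sides of the median in GC content, although their signals varied together over the arrays. The Lyl1 stretch held 1 match to CTTTGA, with its first base 22 bases before the start. Flt3 and Bcl11b also held 1 match each, at 179 and 89 bases before the start, and the other 5 entries held none. This motif occurred in 13.8% of all promoters of this length. No entry held AGATAA, a core of GATA factors found in 9.99% of promoters. The other GATA core searched, TGATAA, was found in 7.94% of promoters and in none of the 8 entries. The RUNX core TGTGGT occurs in 14.0% of promoters and was in none of the 8. The same was true of GTGGGAA, read by the Notch partner RBPJ and present in 5.42% of promoters. The E box CAGCTG, present in 13.001% of promoters, was in none of the 8 either. All motifs were searched on both strands. A match is a description of letters and not a binding site, and no match concerns only these 250 bases.

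None of the 8 genes was called in Foxn1 mutants against wild type. The log2 difference was -0.84 ± 0.89 for Kit, -0.32 ± 0.77 for Lyl1, -0.35 ± 0.40 for Hhex and 0.06 ± 0.27 for Flt3 (SE of the limma fit to all 9 arrays). Among the specification genes it was -0.09 ± 1.39 for Il7r, 0.24 ± 0.85 for Thy1, 0.09 ± 0.52 for Il2ra and -0.19 ± 0.26 for Bcl11b. All 8 adjusted p-values were 1.00. 0 of the 8 genes were called at an adjusted p under 0.05, where 0% of all 22206 clusters were called, and 0 of 8 had an unadjusted p under 0.05, where 4.04% of clusters did. The 95% intervals were wide: -2.84 to 1.15 for Kit, -2.05 to 1.40 for Lyl1 and -3.21 to 3.04 for Il7r, so that the Il7r interval spanned differences of several fold in both directions. No gene of the 8 had non-overlapping groups (4.86% of clusters lay higher and 3.43% lower without overlap).

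Without the pair of arrays that stood apart the SE fell for 6 of the 8 genes, rose for Flt3 (0.28) and Bcl11b (0.31), and none was called. Kit then read 14.65 and 14.68 in wild type and 14.00 and 13.99 in Foxn1 mutants, a difference of -0.67 ± 0.37 (95% interval -1.52 to 0.18, adjusted p 0.872). It was the only one of the 8 genes whose groups did not overlap, where 17.1% of all clusters lay lower and 17.8% higher without overlap. 0 of 8 genes had an unadjusted p under 0.05, where 5.62% of clusters did. Il7r differed by -0.19 ± 0.46 and Lyl1 by -0.05 ± 0.30. Hhex, which was 0.35 lower on average with all arrays, was 0.22 higher without the pair. With the pan-leukocyte mean as a covariate in place of leaving arrays out, Kit differed by -0.77 ± 0.25 (95% interval -1.34 to -0.20), with an unadjusted p of 0.0138 and an adjusted p of 0.583. In that fit 8.24% of all clusters had an unadjusted p under 0.05, and Il7r differed by 0.04 ± 0.24. Within date code A, which holds wild type replicate 3 and the low Foxn1 mutant replicate 2, Kit differed by -3.67 and Il7r by -4.18, beside -3.56 for the pan-leukocyte mean. Within code B, which holds wild type replicate 2 and the other Foxn1 mutant arrays, Kit differed by -0.65, Lyl1 by 0.32 and Il7r by -0.44, beside -0.19 for the pan-leukocyte mean.

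None was called in Tbx1 mutants against wild type either. The difference was 0.15 ± 0.89 for Kit (95% interval -1.85 to 2.15), -0.09 ± 0.77 for Lyl1 (-1.81 to 1.64), 0.85 ± 1.39 for Il7r (-2.27 to 3.98) and 0.03 ± 0.85 for Thy1 (-1.88 to 1.94). Il2ra differed by -0.46 ± 0.52, Flt3 by 0.23 ± 0.27 and Hhex by -0.10 ± 0.40. Bcl11b had the lowest unadjusted p of the 8, 0.115, with a difference of -0.45 ± 0.26, and its 3 Tbx1 mutant arrays lay below all 3 wild type arrays. That arrangement held for 4.27% of clusters, and the adjusted p in limma was 1.00 for all 8 genes. 0 of 8 genes were called, where 0.0135% of all clusters were, and 0 of 8 had an unadjusted p under 0.05, where 3.79% did.

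The signs of Kit and Thy1 in Tbx1 mutants were not stable when arrays were left out. Kit differed by -0.22 without Tbx1 mutant replicate 2, and Thy1 by only 0.03 with all arrays. Kit, Il7r and Thy1 were all negative without wild type replicate 1. Without the pair that stood apart, of which only that array enters this difference, Kit differed by -0.67 ± 0.34, Il7r by -0.66 ± 0.42, Thy1 by -0.86 ± 0.55 and Il2ra by -0.89 ± 0.43, with adjusted p-values in limma of 0.653, 0.730, 0.738 and 0.647. Lyl1 then differed by -0.74 ± 0.27 (95% interval -1.36 to -0.11, unadjusted p 0.0263, adjusted p 0.531), with wild type at 9.08 and 9.82 and Tbx1 mutants at 8.62 to 8.86. Lyl1 and Bcl11b were the genes of the 8 whose groups did not overlap, where 13.6% of clusters lay lower and 11.6% higher without overlap. Lyl1 was also the 1 gene of the 8 with an unadjusted p under 0.05 in this fit, where 8.07% of clusters had one. Within date code A, which holds wild type replicate 3 and Tbx1 mutant replicate 1, Kit differed by -1.12, Lyl1 by -1.16 and Il7r by -0.87, beside -0.999 for the pan-leukocyte mean. Within code C, which holds the low wild type replicate 1 and the other Tbx1 mutant arrays, Kit differed by 2.01, Lyl1 by 1.23 and Il7r by 4.11, beside 3.00 for the pan-leukocyte mean. The part of leukocyte content in these differences was not tested beyond the covariate fit, where Kit differed by -0.21 ± 0.26, Lyl1 by -0.39 ± 0.27 and Il7r by 0.28 ± 0.25. None was called there, and 0 of 8 had an unadjusted p under 0.05, where 6.82% of clusters did.

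Between the mutants, too, no gene of the 8 was called. Foxn1 mutants minus Tbx1 mutants gave -0.99 ± 0.89 for Kit (95% interval -2.99 to 1.01), -0.94 ± 1.39 for Il7r (-4.07 to 2.19), 0.55 ± 0.52 for Il2ra and 0.21 ± 0.85 for Thy1, with adjusted p-values of 0.999. 0% of all clusters were called, and 0 of 8 genes had an unadjusted p under 0.05, where 2.98% of clusters did. Flt3 alone had non-overlapping groups, lower in Foxn1 mutants as in 3.91% of clusters, and it was below background on every array. Without the pair of arrays that stood apart Kit differed by 0.01 and Lyl1 by 0.68 ± 0.27 (95% interval 0.06 to 1.31, unadjusted p 0.0357, adjusted p 0.548), the latter without overlap, where 14.7% of clusters lay higher and 12.4% lower without overlap. Lyl1 was the 1 gene of the 8 with an unadjusted p under 0.05 in that fit, where 8.53% of clusters had one, and with the pan-leukocyte covariate 0 of 8 did, where 6.04% of clusters did. In the only shared date code, A, Kit differed by -2.55 and Il7r by -3.30, beside -2.56 for the pan-leukocyte mean. With the date code as a fixed block the differences moved further. That fit keeps the pair, with the low Foxn1 mutant replicate 2 in code A and the low wild type replicate 1 in code C. Without the pair and with no block, Il7r had differed by 0.47 ± 0.42 and Thy1 by 0.83 ± 0.55 between the mutants. With the block Kit differed between the mutants by -2.60 ± 0.87, Il7r by -3.80 ± 1.23 and Thy1 by -1.84 ± 0.55. These were the 3 of 8 genes with an unadjusted p under 0.05 in limma (0.0176, 0.0145 and 0.0096), where 9.02% of clusters had one. Against wild type Kit differed by -1.65 ± 0.71 in Foxn1 mutants, the 1 gene of 8 with an unadjusted p under 0.05 (0.0496), where 5.73% of clusters had one. In Tbx1 mutants Thy1 differed by 1.06 ± 0.45, the 1 of 8 there (0.0448), where 8.71% of clusters had one, and Kit by 0.95 and Il7r by 2.28, opposite in sign to their values without wild type replicate 1. None was called after adjustment (lowest adjusted p in limma 0.458), where 0.0045% of clusters were in Tbx1 mutants against wild type and 0% in the other comparisons. These 3 comparisons share groups, so their values are not independent of each other. A moderated F test for any genotype difference called 0 of the 8 genes, where 0.00901% of clusters were called.

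**Figure D2:**
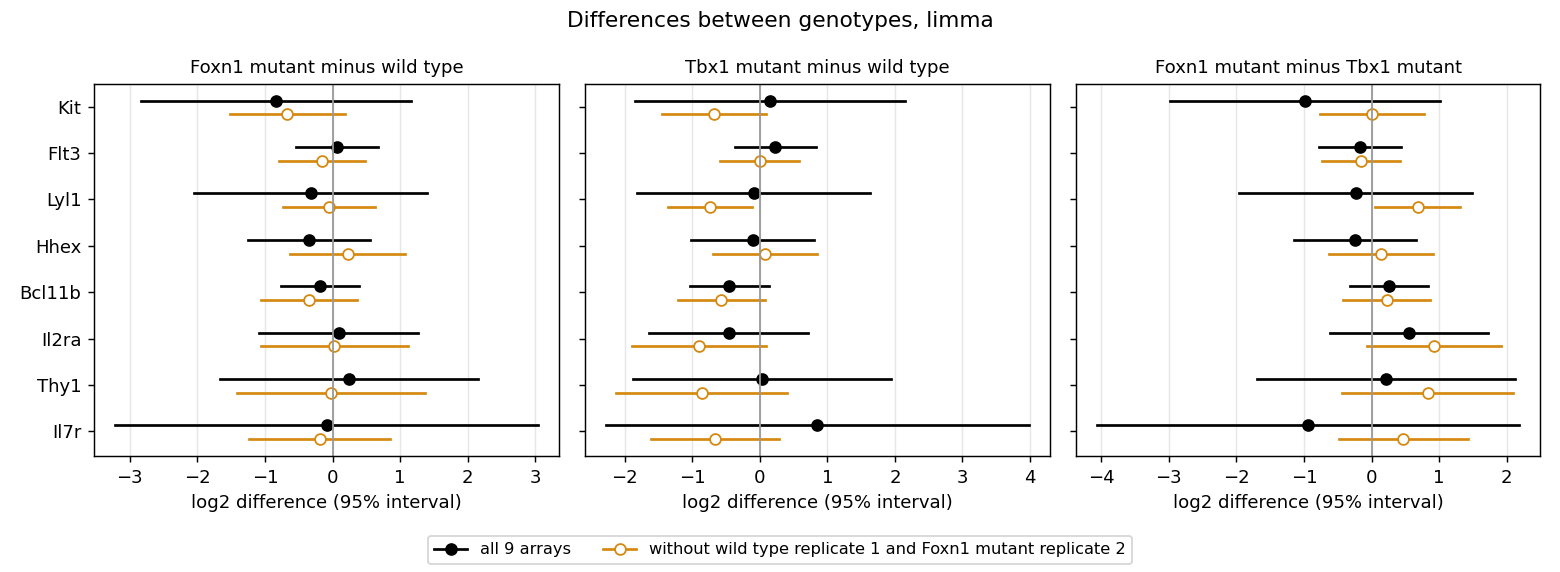
Log2 differences between genotypes (horizontal axis, with 95% intervals from limma) for the 8 genes in 3 comparisons, with filled points for all 9 arrays and open points without the pair that stood apart. The intervals of all 8 genes span 0 with all 9 arrays, and the Kit difference in Tbx1 mutants moves from 0.15 to -0.67 when the pair is left out.

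Progenitor and specification genes were then set against each other on each array. Each gene was centred on its 9-array mean, and the 4 centred genes of a set were averaged. Flt3, Hhex, Il2ra and Bcl11b, which lay near or below background, entered with the same weight as the others. The specification mean minus the progenitor mean was -0.83, 0.99 and -0.49 in wild type, 0.00, 0.25 and 0.56 in Foxn1 mutants, and 0.05, -0.38 and -0.15 in Tbx1 mutants. The genotype means were -0.11 ± 0.97, 0.27 ± 0.28 and -0.16 ± 0.21 (SD, n = 3 each). The wild type arrays alone spanned the full range of the 9. The pooled SD within genotypes was 0.59, with wild type the widest group. The 0.43 between the mutants, given below, exceeded the SD of either mutant group. The differences were 0.38 (Foxn1 mutants minus wild type), -0.05 (Tbx1 mutants minus wild type) and 0.43 (Foxn1 mutants minus Tbx1 mutants). These differences carry no test. Without the pair of arrays that stood apart they were 0.03, -0.41 and 0.44, and within date code A they were 0.73, 0.53 and 0.20 in the same order. Within code B Foxn1 mutants minus wild type was -0.71, of opposite sign to code A. Within code C, which holds the low wild type replicate 1, Tbx1 mutants minus wild type was 0.56, of the same sign as code A.

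Both sets were lowest on the pair of arrays that stood apart. The progenitor mean deviated by -0.65 and the specification mean by -1.48 on wild type replicate 1, and by -1.42 and -1.17 on Foxn1 mutant replicate 2. Wild type replicate 2 was furthest to the specification side, at 0.17 for progenitor and 1.15 for specification genes, followed by Foxn1 mutant replicate 3 at 0.42 and 0.98. Wild type replicate 3 lay to the progenitor side, at 0.80 and 0.32. The order of arrays thus rests in part on genes near or below background. These genes are left out when Kit and Lyl1 alone are taken from Il7r and Thy1. The values were then -1.29, 0.85 and -0.63 in wild type, 0.01, 0.19 and 0.71 in Foxn1 mutants, and 0.26, -0.06 and -0.04 in Tbx1 mutants. Wild type replicates 1 and 2 again held the lowest and the highest place.

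**Figure D3:**
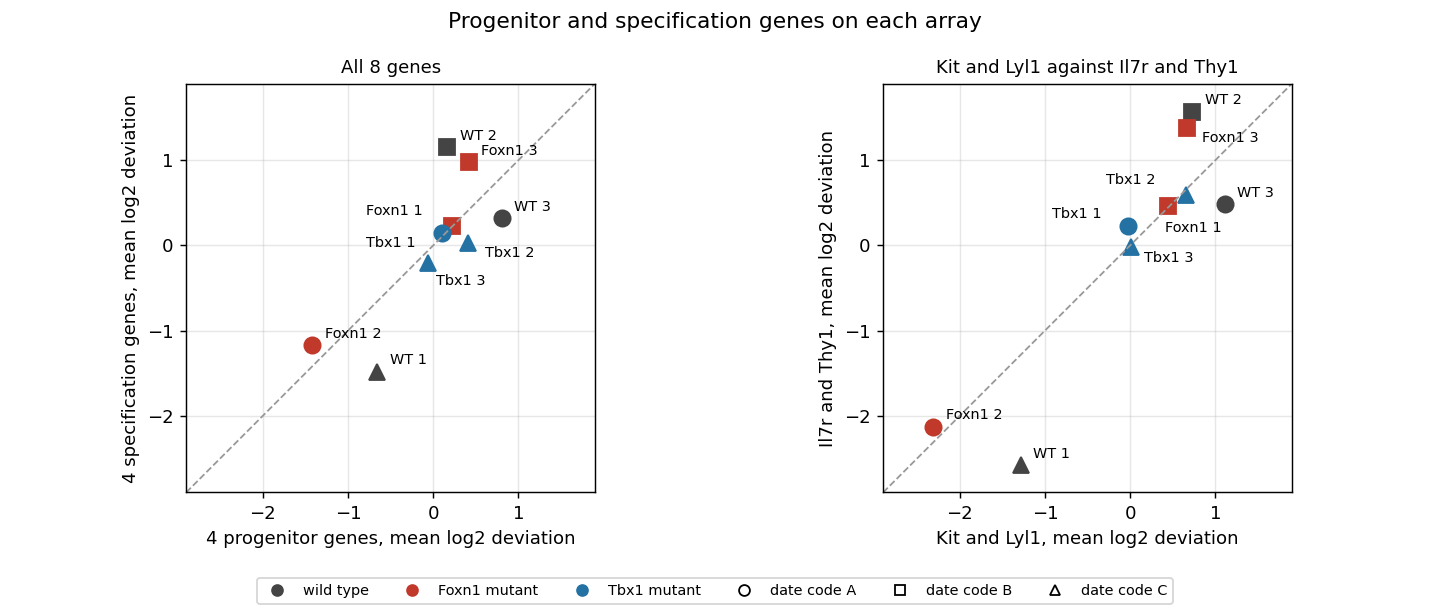
Mean log2 deviation from the 9-array mean of the specification genes (vertical axis) against that of the progenitor genes (horizontal axis), with 1 point an array, for all 8 genes at left and for Kit, Lyl1, Il7r and Thy1 at right; the dashed line marks equal deviation. Wild type replicate 2 and Foxn1 mutant replicate 3 lie above the line at left (by 0.99 and 0.56), and wild type replicates 1 and 3 lie below it (by 0.83 and 0.49).

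Other genes of the same programme were not called either. Of all clusters 0% were called in Foxn1 mutants and 0.0135% in Tbx1 mutants against wild type, and 0% between the mutants. With so few calls over all clusters, 0 calls in a list says little about its genes. Of 13 other progenitor genes 12 were measured and none was called in any comparison: in Foxn1 mutants 4 lay higher and 8 lower than wild type (median difference -0.08), and in Tbx1 mutants 6 and 6 (median -0.01), beside medians of 0.02 and 0.01 over all clusters. Unlike Kit and Lyl1, these genes did not all drop on the pair of arrays that stood apart. Spi1, which encodes the myeloid and progenitor factor PU.1, read 8.80 and 9.50 there and 11.06 to 12.24 elsewhere, but Meis1, a homeobox factor that mesenchyme also expresses, read 13.99 and 14.01 there and 12.15 to 12.96 elsewhere. Mycn, a growth-promoting factor of the earliest progenitors, read 6.35, 6.81 and 6.91 in wild type, 6.05, 4.78 and 6.35 in Foxn1 mutants, and 5.28, 6.21 and 5.77 in Tbx1 mutants, with uncalled differences of -0.96 ± 0.41 and -0.94 ± 0.41.

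Of 26 other genes of T specification 23 were measured and none was called, where at most 0.0135% of all clusters were in any of the 3 comparisons. In Foxn1 mutants 10 lay higher and 13 lower than wild type (median -0.17), and in Tbx1 mutants 14 and 9 (median 0.18). Their mean was 4.99 to 7.75 in wild type, 5.18 to 7.43 in Foxn1 mutants and 6.68 to 7.22 in Tbx1 mutants, with the lowest value of the first 2 groups on the pair that stood apart. Ikzf1, the lymphoid zinc finger factor Ikaros, read 7.15 and 8.17 on that pair and 12.56 to 13.68 elsewhere. Runx3, a factor of T and innate lymphoid cells, read 4.29 and 4.49 on it and 8.25 to 10.26 elsewhere. For 17 of the 23 genes this pair held the 2 lowest values. It did not for the other 6, among them Notch3, which was highest of the 9 arrays on Foxn1 mutant replicate 2 (7.83, beside 6.52 to 7.70 on the 7 arrays outside the pair), and Tcf12, an E protein expressed in many tissues, which read 12.26 and 13.04 on the pair and 12.58 to 13.08 elsewhere.

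The ligands of the receptors among the 8 genes come mostly from the stroma. Kitl, the ligand of Kit, read 7.81, 10.66 and 10.46 in wild type, 10.64, 8.54 and 10.49 in Foxn1 mutants, and 10.08, 10.96 and 11.03 in Tbx1 mutants. Its differences from wild type were 0.24 ± 0.79 in Foxn1 mutants and 1.05 ± 0.79 in Tbx1 mutants (SE). Il7, the ligand of Il7r, read 8.03, 11.83 and 11.75 in wild type, 11.68, 9.22 and 11.83 in Foxn1 mutants, and 11.21, 11.28 and 11.43 in Tbx1 mutants, with differences of 0.37 ± 1.00 and 0.77 ± 1.00. These differences include the pair that stood apart. Outside it Il7 was 11.75 and 11.83 in wild type, above the 11.21 to 11.43 of Tbx1 mutants, where 13.6% of clusters lay lower without overlap. Kitl overlapped there, at 10.46 and 10.66 in wild type and 10.08 to 11.03 in Tbx1 mutants. Kitl and Il7, 2 of the 5 ligands, and their receptors Kit and Il7r were lowest on the same 2 arrays. So were 11 of the 12 thymic epithelial genes, and the mean of the 12 was 7.78 and 8.15 there and 10.89 to 11.45 elsewhere. Flt3l ranged from 4.97 to 6.01 over the 9 arrays, Tslp, a second ligand acting through Il7r, from 3.96 to 5.75, and Il2 was below the negative-control median on all 9. None of the 5 ligands was called in any of the 3 comparisons, where at most 0.0135% of all clusters were.

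Kit also marks mast cells and melanocytes, and Thy1, Hhex and Il2ra are not limited to T cells, so marker lists of other cells were measured beside them. The mean of 5 mast cell genes was 4.73 to 5.28 in wild type, 4.03 to 5.04 in Foxn1 mutants and 4.74 to 5.10 in Tbx1 mutants, with 1 to 3 of the 5 above the negative-control median on any array. The mast cell receptor genes Ms4a2 and Fcer1a were below that median on all 9 arrays. Cpa3, a protease of mast cells that early T progenitors also express, read 3.94 and 4.28 on the low pair and 8.46 to 10.46 elsewhere, as Kit did in direction. The mean of 5 melanocyte genes was 4.16 to 4.74, 4.08 to 4.79 and 4.11 to 4.45 in the 3 genotypes, and Tyr, the pigment enzyme tyrosinase, was below the negative-control median on all 9 arrays. The melanocyte mean was highest on the pair that stood apart (4.74 and 4.79), where Sox10, a factor that neural crest derivatives share, read 7.57 and 7.04 against 4.02 to 5.86 elsewhere. In the mast cell list Gata2, which sympathetic neurons and endothelium also express, read 9.49 on wild type replicate 1 and at most 5.21 elsewhere. Of 7 macrophage genes 6 to 7 exceeded the negative-control median on every array, and their mean was 6.80 to 7.49, 7.34 to 8.03 and 7.18 to 7.40. It was lowest on wild type replicate 1 (6.80, beside 6.82 on wild type replicate 2) and highest on Foxn1 mutant replicate 2 (8.03), where Csf1r, the receptor for a macrophage growth factor, read 10.20 against 8.59 to 9.04 elsewhere. The mean of 7 mesenchymal genes, a class of cell that can carry Thy1, was 11.62 to 12.15 in wild type, 12.26 to 13.35 in Foxn1 mutants and 12.39 to 12.75 in Tbx1 mutants, highest on Foxn1 mutant replicate 2. Of the 7, all lay higher in Foxn1 mutants (median difference 0.86) and 6 in Tbx1 mutants (median 1.03) than in wild type. Of these genes 0 were called, where 0% and 0.0135% of all clusters were. The mean of 7 endothelial genes stayed within 7.40 to 8.35 on all 9 arrays. The mean of 6 innate lymphoid genes was 5.38 and 5.23 on the pair that stood apart and 5.68 to 6.58 elsewhere. Of these 6 genes 2 to 4 exceeded the negative-control median on any array. The part of other cells in the signals of the 8 genes was not tested.

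**Figure D4:**
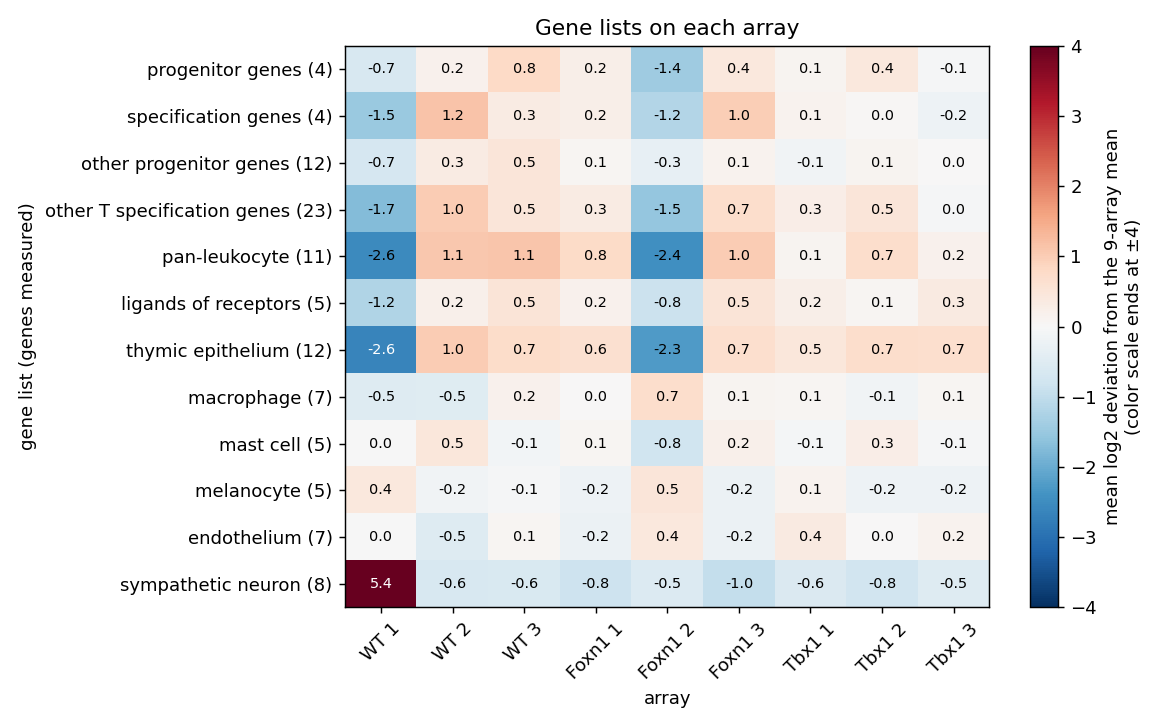
Mean log2 deviation from the 9-array mean (color and printed value) of 12 gene lists (vertical axis, number of genes measured in parentheses) on each array (horizontal axis). The pan-leukocyte, thymic epithelium and other T specification lists are lowest on the arrays WT 1 and Foxn1 2, the macrophage list is highest on Foxn1 2, and the sympathetic neuron list is high on wild type replicate 1 alone.

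The genes most like each of the 8 over the 9 arrays were named by Pearson correlation among 10072 genes with a mean signal at or above the median. The correlation over the 7 arrays without the low pair is given second. For Kit they were Sec11c (0.988 and 0.929), Csk (0.978 and 0.967) and Coro1a (0.977 and 0.807). For Lyl1 they were Arhgap4 (0.994 and 0.968), Ostm1 (0.989 and 0.927) and Sod2 (0.986 and 0.910). For Il7r they were Acap1 (0.995 and 0.955), Arhgap15 (0.995 and 0.989) and Coro2a (0.994 and 0.959). For Thy1 they were Pld4 (0.963 and 0.937), Ints7 (0.958 and 0.893) and Amd2 (0.955 and 0.921). For Il2ra they were Rhbdd1 (0.962 and 0.954), Naprt (0.922 and 0.936) and Serpinb6b (0.912 and 0.891), and for Bcl11b Adssl1 (0.936 and 0.953), Prxl2a (0.899 and 0.898) and Zbtb17 (0.897 and 0.946). The closest to Hhex was Knl1 (0.939 and 0.861) and the closest to Flt3 was Lmf1 (0.959 and 0.915), both for genes whose own signal lay near or below background. The highest of 10072 correlations over 9 points is large by selection, and these values are descriptions with no test.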

How the data were processed

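Thymic lobe RNA of 3 genotypes was measured on Clariom S mouse arrays, 3 a genotype. The authors deposited log2 values, per the values themselves (1.47 to 19.92). Software, normalization and build were not given in the sources used here. Values were used as deposited. Of 28846 features, 6640 control features were left out, leaving 22206 transcript clusters. Gene symbols came from GEO's platform annotation. The member genes and lists were chosen with earlier results of these data known. The planned specification set had 6 genes, and Tcf7 and Gata3 were not analysed here, which left 4.

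All 9 arrays entered 1 fit of limma 3.58.1 (R 4.3.3, files read by data.table at version 1.17.8) with genotype as the only factor, empirical Bayes moderation, two-sided tests and Benjamini-Hochberg adjustment over 22206 clusters at a threshold of 0.05. The fit was tested on simulated data. The number of arrays limits the precision. Replicates were numbered in accession order, so numbers pair no samples. Date codes of unstated meaning in the titles split the arrays. Code A covers replicate 3 of wild type, 2 of Foxn1 mutants and 1 of Tbx1 mutants. Code B covers replicate 2 of wild type with 1 and 3 of Foxn1 mutants. Code C covers replicate 1 of wild type with 2 and 3 of Tbx1 mutants.

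Named genes were the members, both targeted genes, the receptors' ligands, the 3 genes most correlated with each member, and up to 3 defining markers of each other list or any called gene in it; which markers to print was chosen after their values were seen. Alternatives were quantile normalization, centring on array medians, minimum cluster means of 3.44 or 5.15 (16654 and 11103 kept), trended robust moderation, weights for arrays, date code blocks (fixed or random), only the arrays compared, a threshold of 0.1, the pan-leukocyte mean as a covariate, the mean over all clusters of a symbol, and leaving out each array. Leaving out the pair of arrays that stood apart was chosen after seeing the data. Promoters were read from RefSeq. Values were handled in Python 3.11.15 with pandas 2.3.3 and numpy 2.4.6, and figures drawn with matplotlib 3.10.9.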

Additional observations from a re-analysis of the deposited data

How the results depend on the processing

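0 of the 8 genes were called in any comparison under any of 21 alternatives, and the lowest adjusted p in limma was 0.583 for Foxn1 mutants and 0.531 for Tbx1 mutants against wild type, 0.458 between the mutants and 0.568 for any difference. The specification minus progenitor value ranged from 0.02 to 0.93, from -0.41 to 0.50 and from 0.29 to 0.57 in the same order of comparisons when single arrays were left out. It moved by more than the pooled SD to 0.82 for Tbx1 mutants minus wild type and to -0.33 for Foxn1 minus Tbx1 mutants when clusters with means below the median were left out, which leaves Kit, Lyl1 and Il7r, and to -0.39 for the latter with the date code as a fixed block. The block's values for single genes stand with the comparisons, and the cause was not tested. Of 486 gene differences under the alternatives, 6 moved by 1 SD or more and 0 were called. Leaving out single arrays took Kit in Foxn1 mutants minus wild type from -1.67 to 0.15 and Il7r in Tbx1 mutants minus wild type from -0.66 to 1.73; the Kit extremes came from dropping either array of the pair in turn, and those of Il7r from dropping wild type replicate 1 or 2. Replicate numbers follow accession order and pair no samples. With 3 arrays a genotype, signals near the negative controls limit what can be read for Flt3, Hhex, Il2ra, Bcl11b and, on most arrays, Thy1.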
